A study of Mus musculus with 6 samples.

Results

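The genes described here are 10 genes of adipocytes and lipid droplets, the organelles in which cells store neutral fat: Fabp4, Fabp5, Pparg, Cebpa, Plin1, Plin2, Lpl, Cd36, Adipoq and Hilpda. They were found by symbol in a table of 26329 genes from cultured mouse ovary, and all 10 had a row. They were proposed with the differences between the groups known, so those differences are given as a description, with no test. The table holds 6 RNA-seq libraries of whole ovary in culture. The 3 Control libraries came from ovaries cultured with DMSO, a solvent, and the 3 ISRIB libraries from ovaries cultured with ISRIB dissolved in it. ISRIB is a compound that acts on eIF2B, a factor needed to start translation, and so lifts the brake that the integrated stress response puts on protein synthesis. The study asked how the integrated stress response bears on the activation of primordial follicles, the resting reserve of the ovary. Its design text names newborn ICR mice for an injection experiment. For the cultured ovaries, the sources used here state neither strain, age, dose and culture time nor whether replicates were separate animals or cultures, so p-values measure the spread between libraries, and that spread may be technical.

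Fat reaches a cell as fatty acids that lipoprotein lipase frees from circulating lipoproteins, is taken up with the help of membrane proteins such as CD36, and is carried inside by fatty acid binding proteins. It is then stored as triglyceride in droplets whose surface is coated by perilipins, which control access of lipases. PPARG and C/EBP alpha are the transcription factors that drive fat cell differentiation, and PPARG is also known from granulosa cells of the rodent ovary. Fabp4, Cd36 and Lpl are not restricted to fat cells, since capillary endothelium or macrophages transcribe them too.

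The values were the authors' FPKM, reads counted per length of gene and per depth of library. Whole read numbers worked back from them came to 34474821 to 38002135 reads per library. Fold changes are ISRIB minus Control on the log2(FPKM + 0.5) scale, with the standard error (SE) from a limma fit over the 12922 genes with a mean of at least 1 FPKM. That scale understates the change of low genes. None of the 12922 genes had a limma adjusted p under 0.05 (0% called). An unadjusted p under 0.05 was found for 2125 genes, 16.4% of those tested (7.73% lower and 8.71% higher in ISRIB). Of the 10 genes, 9 passed the filter and Adipoq did not. Pparg passed through its ISRIB libraries, since its Control mean was below 1 FPKM. Longer genes tended to lower fold changes across the genes tested (Spearman rho −0.36 across genes, which are not independent replicates), so values after removal of this trend are given where they differ most.

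The label of a fat cell programme held only in part. Adipoq, the gene of the adipocyte hormone adiponectin, was counted with 1, 1 and 0 reads in Control and 0, 2 and 3 reads in ISRIB (0.0233, 0.0211 and 0 FPKM against 0, 0.0435 and 0.0674 FPKM). Of the 11 mature adipocyte markers with a row, 6 stayed below 1 FPKM in every library. These were Adipoq, Cidec, Retn, Cfd, Adig and Trarg1, which together had 8 to 23 reads per library, and Cfd, the adipsin gene, was at 0 in all 3 Control libraries and in ISRIB replicate 1. The remaining markers were measured at higher levels. Plin1, Lipe, Slc2a4, Pck1 and Thrsp reached 4.84, 3.92, 1.36, 1.59 and 1.96 FPKM in their highest libraries. Lipe also acts in steroid-producing cells. Granulosa markers summed to 429 to 609 FPKM and oocyte markers to 1443 to 1773 FPKM over the 6 libraries, so the ovary label held.

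Promoter sequences are shown for Plin2, one of the genes with the highest levels, for Adipoq, the one with the lowest, and for the transcription factor gene Cebpa. RefSeq's table for GRCm38.p6 held 7 of the 10 genes. The stretches are the 250 bases before the start on the gene's own strand. They are Plin2 at chr4:86670060-86670309 (minus strand), Cebpa at chr7:35119043-35119292 (plus strand) and Adipoq at chr16:23146286-23146535 (plus strand). Capitals mark letters searched on both strands. In Plin2 they mark the reverse complement of AGGTCA, the half-site of PPAR receptors. Nearer its start they mark the reverse complement of GCGTG, a core bound by hypoxia-inducible factors. In Cebpa they mark TATAAA, the TATA box.
Plin2: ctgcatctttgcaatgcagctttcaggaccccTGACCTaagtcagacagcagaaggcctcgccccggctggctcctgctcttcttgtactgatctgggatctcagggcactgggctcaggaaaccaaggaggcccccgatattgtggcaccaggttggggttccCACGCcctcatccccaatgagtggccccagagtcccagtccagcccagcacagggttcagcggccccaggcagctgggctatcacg
Cebpa: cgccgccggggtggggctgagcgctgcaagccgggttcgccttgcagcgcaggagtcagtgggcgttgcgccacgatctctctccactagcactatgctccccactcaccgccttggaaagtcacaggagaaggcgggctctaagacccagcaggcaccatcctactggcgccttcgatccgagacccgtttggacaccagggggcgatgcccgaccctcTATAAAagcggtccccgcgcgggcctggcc
Adipoq: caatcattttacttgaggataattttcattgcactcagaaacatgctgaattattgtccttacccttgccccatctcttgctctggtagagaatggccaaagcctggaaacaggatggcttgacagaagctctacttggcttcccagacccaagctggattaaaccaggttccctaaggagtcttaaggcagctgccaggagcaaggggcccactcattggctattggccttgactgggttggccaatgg
Hilpda and Plin1 are shown by 30 bases around the letters searched, Hilpda for ACGTG (chr6:29272571-29272600, plus strand) and Plin1 for its pair of TTGCNNAA matches, the letters bound by C/EBP factors (chr7:79732945-79732974 and chr7:79732816-79732845, minus strand).
Hilpda: gatggccagcggACGTGccccagggcgagc
Plin1 upstream: ccacctctttaTTGCCTAAacatcccccat
Plin1 near: tctgagaggcaTTGCCCAAgattccctgga

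In the windows of the 7 genes, AGGTCA was found before Plin2, Cd36 and the first and second of 3 Pparg starts. These letters stand in 13.8% of the 27025 promoters searched. This share and those below are per promoter, whereas Pparg was searched at 3 starts and Hilpda at 2. For these genes the shares are not a like-for-like comparison, since more windows give more room for a match. GCGTG was found before Plin2, Pparg and Hilpda (28.2% of all promoters), and ACGTG before Hilpda (16.6%). The Hilpda match belongs to the second of 2 starts and lies in an exon of transcripts that begin further upstream. The Plin1 match nearer the start likewise lies in a GENCODE M21 exon, as do the matches before the second Pparg start and those nearest its first start. TTGCNNAA was found before Plin1 and the third Pparg start (9.55%), and TATAAA before Cebpa and the second Pparg start (13.0%). The full PPAR direct repeat, in which the half-site follows itself after any single base, and TGATGNAA, letters bound by C/EBP-ATF pairs in the stress response, were in none of the windows (0.0370% and 3.53% of all promoters). Adipoq had none of the letters searched. The Cd36 start is less certain, since the bases after it were found in no GENCODE M21 transcript of the gene. Its window also lies inside the annotated span of Cd36. A match describes the letters only and is no evidence of binding.

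The levels, which are per length and so can be set side by side, ran in this order over the 6 libraries: Fabp5 (mean 36.4 FPKM), Plin2 (29.9), Lpl (16.7), Hilpda (13.9), Cd36 (10.9), Cebpa (8.33), Fabp4 (7.89), Plin1 (3.0), Pparg (1.11) and Adipoq (0.0259). Clear steps, with no overlap between neighbours, lay between Plin2 and Lpl, between Fabp4 and Plin1, between Plin1 and Pparg and between Pparg and Adipoq. The other pairs of neighbours in this order had ranges that overlapped and were not separated beyond their spread. Fabp5 stood above 85.7% of the genes tested and Pparg above 1.54%. In 3 of the 9 genes the ISRIB libraries all lay above the Control libraries, as they did in 10.8% of all genes tested, and none had all below (12.0% of all genes tested). Since the genes were chosen on this contrast, nothing is read from that share.

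**Figure D1:**
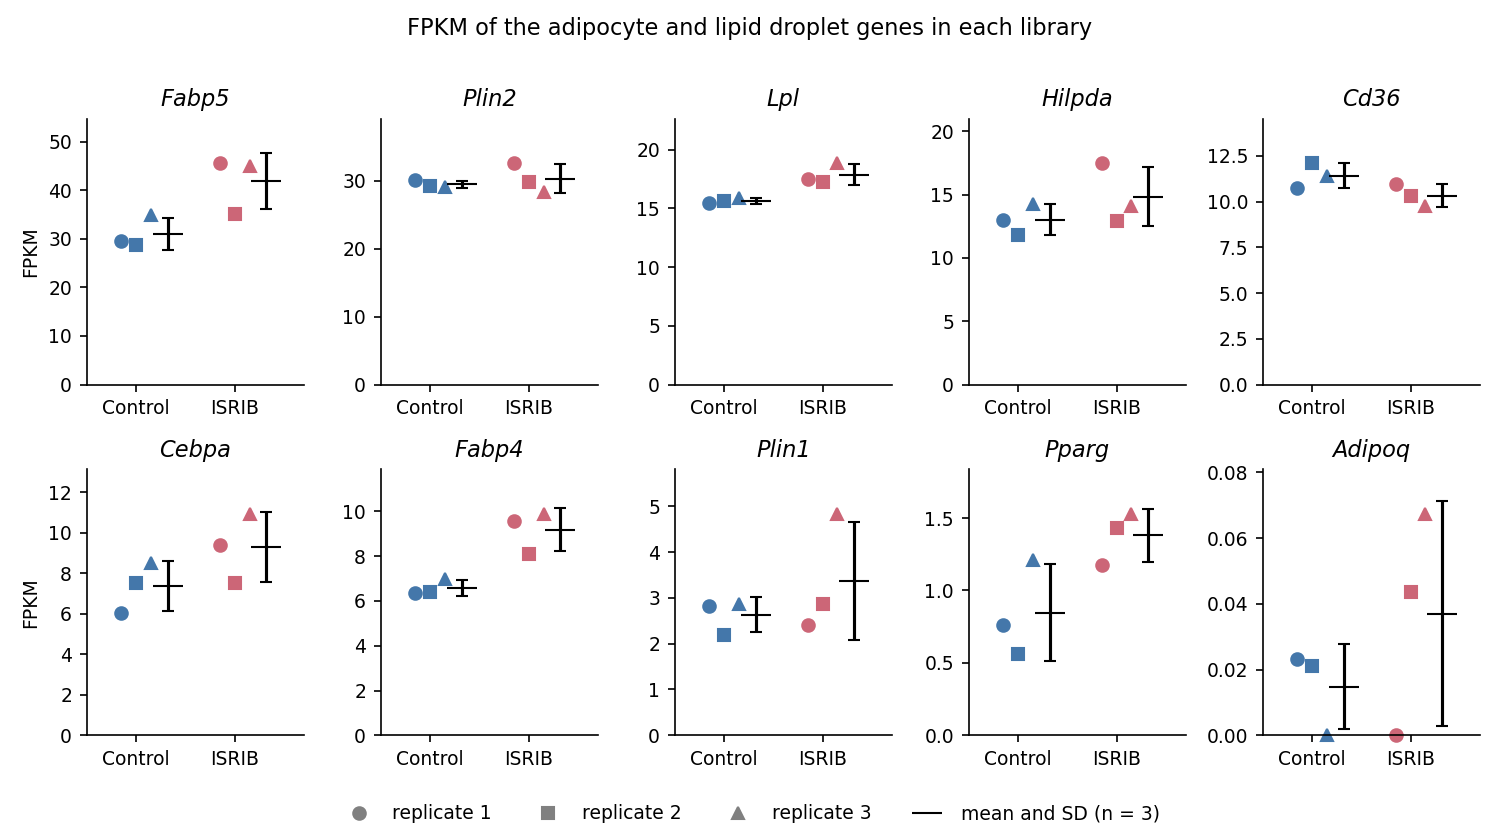
FPKM of each of the 10 genes in the 3 Control (blue) and 3 ISRIB (red) libraries, by replicate number, with the group mean and SD (n = 3) in black; each panel has its own axis from 0 and genes are ordered by level. Fabp5, Lpl and Fabp4 have all red points above the blue ones, and the Adipoq axis ends below 0.1 FPKM.

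Both fatty acid carriers had groups that did not overlap. Fabp4, the fatty acid carrier of adipocytes, macrophages and capillary endothelium (chromosome 3, 10204088 to 10208576, minus strand, GRCm38), measured 6.36, 6.42 and 6.99 FPKM in Control and 9.58, 8.09 and 9.90 FPKM in ISRIB. Every ISRIB library was above every Control library, and the gap between them was larger than the whole Control range. The means were 6.59 ± 0.349 and 9.19 ± 0.967 FPKM (SD, n = 3 each). The difference of 0.45 on the log2 scale (SE 0.0853) stood above 98.7% of all genes tested. It rested on 198 to 240 reads per Control library and 269 to 319 per ISRIB library.

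Fabp5, a broadly expressed paralog of Fabp4 (chromosome 3, 10012548 to 10016607, plus strand), measured 29.5, 28.7 and 34.8 FPKM in Control and 45.6, 35.1 and 44.9 FPKM in ISRIB. The groups did not overlap, but ISRIB replicate 2 lay just above Control replicate 3. The log2 fold change was 0.42 (SE 0.112), from 31.0 ± 3.34 to 41.9 ± 5.86 FPKM. Fabp5 has near-identical processed copies in the mouse genome, so its level is uncertain where reads were shared with them. Both genes are short, with implied lengths of 903 bases (Fabp4) and 965 bases (Fabp5), and after removal of the length trend their log2 fold changes were 0.35 and 0.33. Between them on chromosome 3 lies Pmp2, another gene of the family, which had 1 read in 1 library. Fabp3, the carrier of heart muscle, had 8.14 ± 1.03 FPKM with DMSO alone and 7.29 ± 0.201 FPKM with ISRIB (−0.14 on the log2 scale, limma adjusted p = 0.470). That difference was −0.065 without Control replicate 2, −0.24 without Control replicate 3 and −0.25 after removal of the length trend.

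Lipoprotein lipase and CD36 act at the entry of fat into the cell and differed in direction. Lpl, the lipase (chromosome 8, 68880491 to 68907448, plus strand), measured 15.4, 15.6 and 15.9 FPKM in Control and 17.5, 17.2 and 18.9 FPKM in ISRIB. Its Control libraries agree closely, with a coefficient of variation of 1.40%, and every ISRIB library lay above them. The log2 fold change was small at 0.19 (SE 0.0522), and 0.13 after TPM rescaling. Cd36, a membrane receptor for fatty acids and oxidised lipoproteins (chromosome 5, 17781690 to 17888801, minus strand), measured 10.8, 12.1 and 11.4 FPKM in Control and 11.0, 10.3 and 9.75 FPKM in ISRIB. ISRIB replicates 2 and 3 were below all Control libraries, while ISRIB replicate 1 lay inside the Control range. With a log2 fold change of −0.14 (SE 0.0672), Cd36 was the only gene among the 9 that was lower in ISRIB in the main scaling, and Plin2 joined it at −0.016 after TPM rescaling.

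Both adipogenic transcription factors had higher means in ISRIB but wide spreads. Pparg (chromosome 6, 115360951 to 115490399, plus strand) measured 0.76, 0.56 and 1.21 FPKM in Control and 1.18, 1.43 and 1.53 FPKM in ISRIB. ISRIB replicate 1 fell just below Control replicate 3, which was well above the other Control libraries. The log2 fold change was 0.51 (SE 0.186), the largest of the 9, and went from 0.35 without Control replicate 2 to 0.70 without Control replicate 3. It rested on 73 to 187 reads per library. On recovered reads with limma's voom, where no pseudocount of 0.5 FPKM damps low genes, it was 0.77.

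Cebpa, the gene of C/EBP alpha (chromosome 7, 35119293 to 35121928, plus strand), measured 6.06, 7.51 and 8.53 FPKM in Control and 9.41, 7.51 and 10.9 FPKM in ISRIB. ISRIB replicate 2 equalled Control replicate 2 and lay below Control replicate 3. The coefficients of variation were 16.9% in Control and 18.5% in ISRIB, beside a log2 fold change of 0.31 (SE 0.152). Leaving out Control replicate 1 or ISRIB replicate 3 brought it to 0.19. Pparg and Cebpa each overlap an antisense gene in GENCODE M21 (Gm44079 and Gm45091). No source used here states whether counting used strand, and reads of the antisense genes may be included.

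Among droplet proteins, Plin2 differed little between groups and the Plin1 difference rested on 1 library. Plin2, the perilipin that coats droplets in most cell types (chromosome 4, 86648386 to 86670060, minus strand), measured 30.1, 29.2 and 29.1 FPKM in Control and 32.6, 29.9 and 28.4 FPKM in ISRIB. The ISRIB libraries lay on both sides of Control, and the log2 fold change was 0.036 (SE 0.0574). Plin1, the perilipin that guards the droplet of fat cells (chromosome 7, 79720218 to 79732903, minus strand), measured 2.83, 2.19 and 2.87 FPKM in Control and 2.41, 2.86 and 4.84 FPKM in ISRIB. ISRIB replicate 3 alone was outside the Control range. The log2 fold change of 0.26 (SE 0.215) was 0.0043 without that library and 0.44 without ISRIB replicate 1. ISRIB replicate 3 also had the most reads of the 6 low adipocyte markers together (23, against 8 to 15 in the other libraries). Single markers went both ways. Adipoq, Cidec, Cfd and Trarg1 had their most reads in ISRIB replicate 3 (3, 6, 5 and 7). The mature adipocyte markers Thrsp and Lipe had their highest levels there (1.96 and 3.92 FPKM). Retn had 2 reads there and 13 in ISRIB replicate 1, and Adig had 0 reads there and 4 in ISRIB replicate 2. Pck1, another mature adipocyte marker, had its lowest level in ISRIB replicate 3 (0.65 FPKM). Slc2a4 had 0.99 FPKM there and its highest level in ISRIB replicate 1 (1.36 FPKM). The part of fat cells in the Plin1 value was not tested.

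Hilpda encodes a small droplet protein that is induced at low oxygen and inhibits adipose triglyceride lipase (chromosome 6, 29272488 to 29275446, plus strand). It measured 13.0, 11.8 and 14.2 FPKM in Control and 17.5, 12.9 and 14.1 FPKM in ISRIB. Only ISRIB replicate 1 lay above the Control libraries. The log2 fold change was 0.18 (SE 0.113), but 0.055 without ISRIB replicate 1 and 0.091 after removal of the length trend. That library was also the one with the highest Plin2 and with outlying levels of Cebpb and Cebpd, early factors of fat cell differentiation that also respond to stress. Cebpb measured 118 FPKM there, against 53.6 to 77.1 FPKM in the other 5 libraries, and Cebpd 24.5 against 9.18 to 15.1 FPKM. Control replicate 2, with the next highest Cebpb and Cebpd (77.1 and 15.1 FPKM), had the lowest Hilpda (11.8 FPKM). The part of the state of ISRIB replicate 1 in the Hilpda value was not tested.

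**Figure D2:**
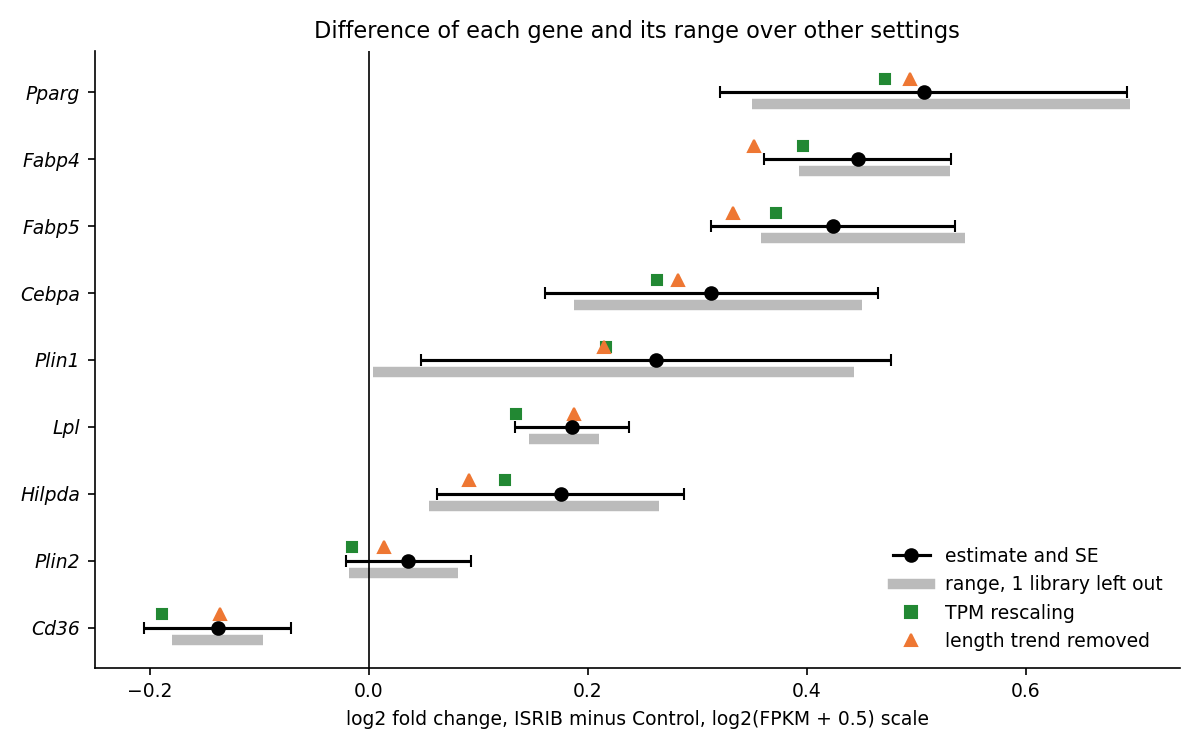
Log2 fold change (ISRIB minus Control, log2(FPKM + 0.5) scale) of the 9 genes that passed the filter, with its SE; grey bars span the values with 1 library left out, squares are values after TPM rescaling and triangles after removal of the length trend. Plin1 reaches 0.0043 and Hilpda 0.055 at the low end of their grey bars, while Fabp4 and Fabp5 stay above 0.33 in all of these.

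The order of libraries within a group was compared across the 9 genes. Control replicate 3 had the highest value of its group for 7 of the 9 genes, all but Plin2 and Cd36. ISRIB replicate 2 had the lowest value of its group for 5 of them (Fabp5, Lpl, Hilpda, Cebpa and Fabp4) and the highest for none. The highest ISRIB value was in replicate 1 for 4 genes and in replicate 3 for 5. The lowest Control value was in replicates 1 and 2 for 4 genes each. This order was not worked out over all genes tested, so no shared pattern is read from these counts. Since these are bulk libraries, fewer cells of a type and less RNA per cell cannot be told apart. The median log2 fold change of the 9 genes was 0.26 with 8 higher, beside 0.0054 over all genes tested with 51.8% higher. TPM rescaling made these 0.22 and −0.044, with 36.0% of all genes higher. Since the 9 genes were chosen on this contrast, nothing is read from their median or their direction.

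Markers of the other cell types that transcribe Fabp4 were lower or mixed. All 12 endothelial markers tested were lower in ISRIB (median −0.16, with 0 past the test and 4 at an unadjusted p under 0.05), beside 48.2% lower and 7.73% lower at that p over all genes tested. They included, picked after their values were seen, the junction cadherin Cdh5 (−0.27, limma adjusted p = 0.119) and the VEGF receptor Kdr (−0.22, adjusted p = 0.109). The summed level of the endothelial list was 267 to 295 FPKM in Control and 228 to 268 FPKM in ISRIB, and the lowest was ISRIB replicate 1 (exact permutation p = 0.2, two-sided, where 0.1 is the smallest p possible). Macrophage and leukocyte markers summed to 73.5 to 77.5 FPKM in Control and 71.6 to 78.4 FPKM in ISRIB (exact permutation p = 0.7), with 4 of 10 tested markers higher and 6 lower. Of these 4, Aif1 passed the filter through its ISRIB libraries. The mature adipocyte list summed to 8.41 to 10.1 FPKM in Control and 9.66 to 12.8 FPKM in ISRIB. It shares Plin1 and Adipoq with the genes described, which were chosen on this contrast, so no p is given for its sum. For the other lists, the exact permutation p with Benjamini-Hochberg adjustment over all 9 cell type lists was 0.54 to 0.70. Granulosa and oocyte sums were 481 ± 51.2 against 531 ± 67.2 FPKM and 1540 ± 97.4 against 1678 ± 85.6 FPKM (exact permutation p = 0.4 and 0.2). Brown adipocyte markers summed to 4.28 to 6.03 against 4.16 to 7.01 FPKM, steroidogenic markers to 78.1 to 103 against 77.2 to 82.6 FPKM, stroma markers to 1018 to 1120 against 1036 to 1212 FPKM and surface epithelium markers to 369 to 433 against 368 to 374 FPKM. The part of cell composition in the values of the 10 genes was not tested.

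**Figure D3:**
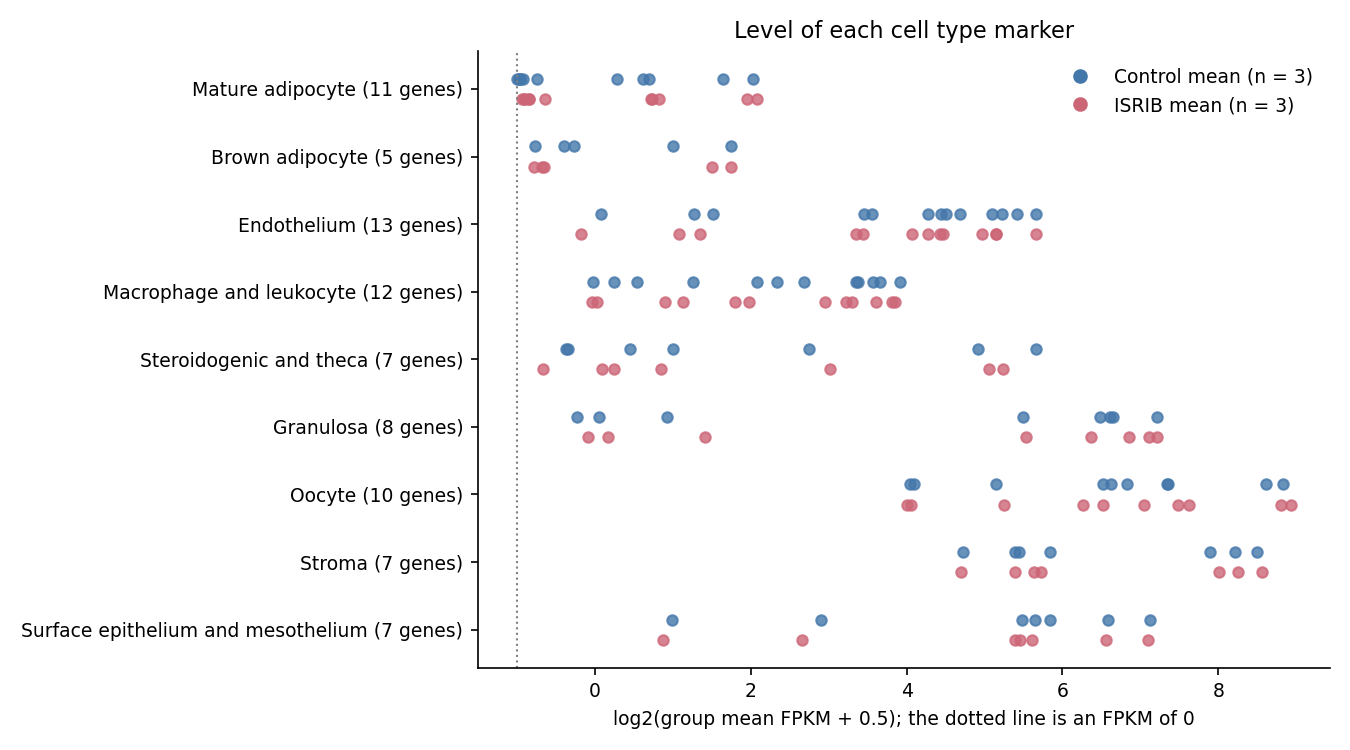
Level of each cell type marker as log2(group mean FPKM + 0.5), blue for Control and red for ISRIB (n = 3 each), with a dotted line at an FPKM of 0. Mature adipocyte markers include 6 close to the dotted line, whereas granulosa, oocyte and stroma markers reach the right side of the plot.

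Other genes of fat storage were described by role in 5 lists. Among 13 tested genes of droplet coats and lipolysis, 9 were higher and 4 lower, with a median of 0.056, and 0 passed the test (1 at an unadjusted p under 0.05). G0s2, which like Hilpda inhibits adipose triglyceride lipase, measured 10.3, 7.29 and 8.29 FPKM in Control and 9.88, 10.9 and 12.2 FPKM in ISRIB (0.34 on the log2 scale, SE 0.126, limma adjusted p = 0.242). Its groups overlapped through Control replicate 1. G0s2 is short, at 853 bases, and differed by 0.24 after removal of the length trend (limma adjusted p = 0.458). Its difference was 0.23 without Control replicate 2 and 0.47 without Control replicate 1. Adipose triglyceride lipase itself, Pnpla2, had 18.2 ± 2.27 and 19.7 ± 0.532 FPKM (0.12, adjusted p = 0.533). Pnpla2 differed by 0.023 without Control replicate 1 and 0.20 without Control replicate 2. Mgll, the lipase of the last step, differed by −0.24 (limma adjusted p = 0.304), and hormone-sensitive lipase, Lipe, by 0.056 (adjusted p = 0.772), at 0.018 without Control replicate 2 and 0.10 without Control replicate 1. Plin3, a widely expressed perilipin, had the highest level of the family at 44.1 ± 2.27 and 44.3 ± 1.75 FPKM, with a log2 fold change of 0.0078 that turned to −0.044 after TPM rescaling. The perilipins Plin4 and Plin5, which are high in fat and in oxidative tissue, reached at most 0.0511 and 0.197 FPKM in any library.

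Triglyceride synthesis and fatty acid activation had 10 higher and 8 lower of 18 tested genes, a median of 0.0096 and 0 past the test (1 at an unadjusted p under 0.05). Gpam, the mitochondrial enzyme of the first step, had 26.9 ± 2.05 and 31.1 ± 4.74 FPKM (0.20, limma adjusted p = 0.376, and 0.080 without ISRIB replicate 3). Agpat5 acts in the second step and had all ISRIB libraries above Control (0.14, adjusted p = 0.269, and 0.093 after TPM rescaling). Dgat1 and Dgat2, the enzymes of the last step, differed by 0.16 and 0.094 (adjusted p = 0.413 and 0.593). Dgat1 differed by 0.071 without ISRIB replicate 1, and Dgat2 by 0.035 without ISRIB replicate 3 and 0.15 without ISRIB replicate 2.

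Uptake genes were split, with 9 higher and 10 lower of 19 tested, a median of −0.023 and 0 past the test (2 higher and 1 lower at an unadjusted p under 0.05). Angptl4, a secreted inhibitor of lipoprotein lipase, had 36.5 ± 2.70 and 40.1 ± 2.23 FPKM (0.14, limma adjusted p = 0.341, and 0.084 after removal of the length trend or 0.090 without Control replicate 1). Gpihbp1, which holds the lipase on capillary walls, had 21.2 ± 2.62 and 21.0 ± 4.21 FPKM (−0.023, adjusted p = 0.951), and 0.13 without ISRIB replicate 1. The lipoprotein receptors Vldlr and Lrp1 went apart. Vldlr had 6.15 ± 0.583 and 7.46 ± 0.972 FPKM (0.26, adjusted p = 0.288). Lrp1 had 72.8 ± 4.26 and 64.2 ± 3.87 FPKM with no overlap (−0.18, adjusted p = 0.213). Lrp1 is long, at 15270 bases, and differed by −0.10 after removal of the length trend.

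Transcription factors and partners of PPARG were mostly lower, with 15 of 21 tested genes lower (48.2% over all genes tested), 8 of them with no overlap (12.0% over all genes tested), and a median of −0.10. None passed the test, and 7 were lower and 0 higher at an unadjusted p under 0.05 (7.73% and 8.71% over all genes tested). Dlk1, a membrane protein that holds back fat cell differentiation, had 140 ± 3.61 and 125 ± 5.75 FPKM (−0.17, SE 0.0463, limma adjusted p = 0.145), with every ISRIB library below Control. Prdm16, a factor of brown fat, had 1.83 ± 0.166 and 1.32 ± 0.177 FPKM (−0.36, adjusted p = 0.202). The coactivator Ncoa1 had a difference of −0.15 on the log2 scale (limma adjusted p = 0.231). Rxra, the receptor that pairs with PPARG, had 20.4 FPKM in both groups, and Ppard, the most abundant PPAR gene here, 12.7 and 12.5 FPKM. Of 7 tested adiponectin receptor and signalling genes, 4 were higher and 3 lower, with a median of 0.0031 and 0 past the test (0 at an unadjusted p under 0.05). Adipor1 had 37.5 ± 2.14 and 39.2 ± 0.663 FPKM, far above the level of Adipoq.

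**Figure D4:**
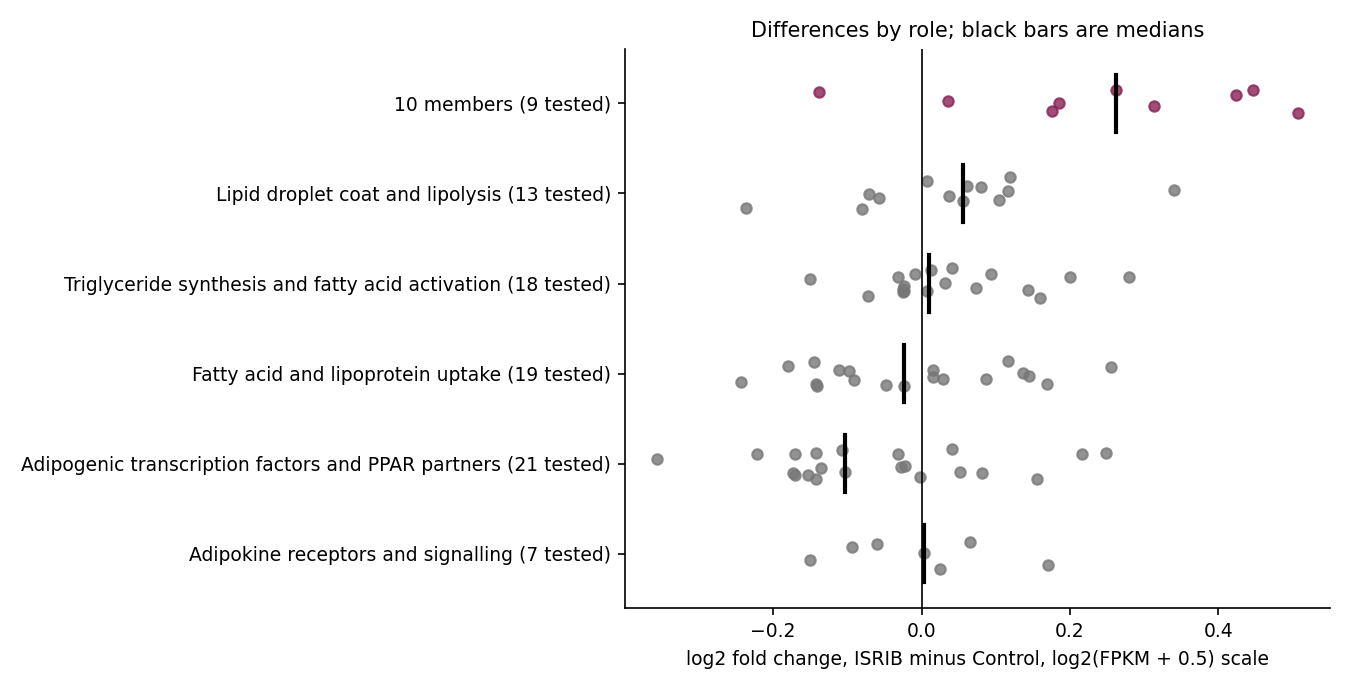
Log2 fold change (ISRIB minus Control, log2(FPKM + 0.5) scale) of the genes described (top, purple) and of the other genes of fat storage by role (grey), one point a gene, with the median as a black bar. The top set was chosen on this contrast and lies mostly to the right (median 0.26), while the medians of the other lists lie between −0.10 and 0.056.

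Genes whose values over the 6 libraries were most like each of the 9 genes were ranked by Pearson's r of log2(FPKM + 0.5), as a description over 6 libraries and 12922 genes. The closest to Fabp5 was Ldha, lactate dehydrogenase A (r = 0.996). The closest to Fabp4 were Cyp2s1 and P4hb, a protein disulfide isomerase (0.993 for both), and the closest to Lpl was Septin2 (0.997), followed by Lsm8 (0.996) and Gpx3 (0.993). Hilpda was closest to Tnfsf9 (0.992) and Plin2 to Hspa13 (0.994). No gene among the 10 was in the first 3 of another.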

How the data were processed

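Total RNA of cultured mouse ovary was sequenced in 6 libraries, with total RNA isolated by a tissue miniprep kit, per the labels' protocols. The deposited table holds the authors' FPKM. Tools listed without roles in the submitters' processing notes are HISAT2, HTSeq, fastp, DESeq2 and R 3.2.0, with build mm10. Annotation, strand setting and scaling total: not given in the sources used here. Groups came from sample titles.

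Each FPKM was a whole read number times a gene and a library factor. All 26329 genes came out whole within 0.01 read. The gene factor gave an implied length (median 3549 bases), and 1 FPKM at that length stood for 122 reads in the shallowest library. Replicate pairs differed beyond sampling noise (chi-square per gene 8.93 to 23.1). Log2(FPKM + 0.5) was fitted with limma 3.58.1 in R 4.3.3 on the 12922 genes whose mean reached 1 FPKM, with 2 groups, an intensity trend and a two-sided test, called at a Benjamini-Hochberg adjusted p under 0.05. The fit and the read recovery were tested on simulated data. Summed marker levels were compared by exact permutation (scipy 1.17.1). Positions are from GENCODE M21 (GRCm38, the build of mm10) and promoters from RefSeq (GRCm38.p6).

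The 10 genes, the lists and the alternatives were chosen with earlier results of these data known. Named genes were the 10, a fixed set of 21, and up to 4 of each of 5 lists with the smallest p. Of the named genes, Lep was not analysed here, nor were the listed Fabp1 and Elovl3. Any other gene was picked with its values in view. Voom on the recovered reads was added after seeing the data. One gene named by this rule is not reported here.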

Additional observations from a re-analysis of the deposited data

How the results depend on the processing

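No gene passed the main test, and other settings called few. A mean of at least 5 FPKM gave 8 genes, TPM rescaling 19 (6 higher and 13 lower), the replicate number as a block 11 and voom on the recovered reads 120. The other settings, leaving out single libraries included, gave 0. The replicate numbers are not shown to pair the libraries, since same-numbered deviations from the group means correlated at −0.190, −0.0909 and 0.192. The block left the fold changes as they were. For Pparg, voom gave 0.77. The median of the 9 genes was 0.18 to 0.34 when single libraries were left out and 0.19 with the 5 FPKM filter, which kept 7 of them. The named genes of the other lists turned sign where their value was near 0 or rested on 1 library. TPM rescaling and removal of the length trend gave Plin3 −0.044 and −0.037, and the latter gave Rxra 0.025. Leaving out single libraries gave −0.029 to 0.044 for Plin3, −0.16 to 0.13 for Gpihbp1, −0.15 to 0.42 for Cebpb, −0.16 to 0.53 for Cebpd, −0.056 to 0.012 for Ppard and −0.070 to 0.052 for Rxra. Log2 ratios of summed markers ran from −0.062 to 0.31 (brown adipocyte), −0.044 to 0.021 (macrophage) and −0.011 to 0.11 (stroma). The causes were not tested.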

Other observations

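Some markers of other cell types are described singly, and they were chosen after their values were seen. Dio2, which activates thyroid hormone and is used as a brown fat marker, measured 1.52, 1.21 and 1.77 FPKM in Control and 2.44, 2.44 and 3.72 FPKM in ISRIB. All ISRIB libraries were above Control (log2 fold change 0.74, SE 0.171, limma adjusted p = 0.119), while Ucp1, the defining gene of brown fat, stayed below 0.4 FPKM in every library. Within the macrophage list, Aif1 was higher in ISRIB (0.96 ± 0.108 and 1.69 ± 0.146 FPKM, log2 fold change 0.59, adjusted p = 0.0995) and Csf1r, the growth factor receptor of macrophages, was lower (4.56 ± 0.223 and 3.45 ± 0.139 FPKM, −0.36, adjusted p = 0.101). The Control mean of Aif1 was below 1 FPKM, so it passed the filter through its ISRIB libraries. Its values rested on 33 to 68 reads per library. Neither Aif1 nor Csf1r overlapped between groups, and their summed list did not separate the groups. Of the 10 macrophage markers tested, 2 had all ISRIB libraries above Control (10.8% over all genes tested) and 3 all below (12.0%). The others of these were Fcer1g (0.28), which was higher, and Adgre1 (−0.34) and Mrc1 (−0.29), which were lower.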
